A study of Mus musculus with 16 samples.

Results

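The nuclei described here are medial ganglionic eminence (MGE)-type GABAergic interneurons of the mouse dentate gyrus (DG), the hippocampal region whose principal neurons are the glutamatergic granule cells (GCs). They were chosen by RNA alone. A nucleus was kept when it held at least 3 UMIs (unique molecular identifiers, each standing for 1 captured RNA molecule) over *Gad1*, *Gad2* and *Dlx6os1*, and when its UMIs of *Lhx6*, *Sox6*, *Sst*, *Pvalb* and *Satb1* exceeded those of *Adarb2*, *Vip*, *Cnr1*, *Npas1* and *Nr2f2*. Of 17015 nuclei within the quality limits, 314 reached the GABA minimum and 56 of these were MGE-type. These 56 were 0.329% of all nuclei and 17.8% of the GABAergic ones. Of the remaining GABAergic nuclei, 222 had more UMIs of the second gene set and are called CGE-type, after the caudal ganglionic eminence, and 36 were tied. The other 16701 nuclei were under the GABA minimum and are called other nuclei; most of the DG consists of GCs and glia.

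The nuclei came from 8 mice, 4 wild type (WT, labelled VV) and 4 homozygous for V321L (labelled LL), with 2 females and 2 males of each genotype. V321L is a missense mutation in the transmembrane region of *Nrg1* that diminishes signaling of the Nrg1 intracellular domain to the nucleus. Every cell of a V321L mouse carries it, so an effect within interneurons cannot be told apart from an effect of other cells on them. RNA and open chromatin (ATAC) were read from the same nuclei of microdissected, frozen DG, with 1 library per mouse. The study states a single wide age range for all its mice and not the age of these ones, their strain is not given in the sources used here, and the point mutation itself cannot be checked from the counts.

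Interneurons of MGE origin depend on the transcription factors Lhx6 and Sox6 and mature mainly into somatostatin (SST) cells and parvalbumin (PV) cells. In the DG, PV basket cells inhibit the somata of GCs, and hilar SST cells inhibit their distal dendrites. CGE-derived interneurons include the VIP, CCK and neurogliaform types. ErbB4, a receptor tyrosine kinase for neuregulins, is carried in the forebrain mainly by interneurons, PV cells in particular. The signaling that V321L diminishes runs the other way, from Nrg1 at the membrane to the nucleus of the cell that carries Nrg1.

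The promoters of 3 genes on which the results turn are shown first. *Sst* and *Pvalb* divide the MGE-type nuclei, and *Erbb4* is compared between those subsets. Each line gives the 250 bases before the start site from RefSeq (GRCm38.p6), read 5′ to 3′ in the direction of the gene. *Pvalb* has a further listed start with its window at chr15:78206401-78206650, which no library's peak overlapped, and the window shown is the one with peaks. All 3 genes lie on the minus strand. The windows are chr16:23890845-23891094 for *Sst*, chr15:78204238-78204487 for *Pvalb* and chr1:69108060-69108309 for *Erbb4*. Capitals mark the cAMP response element TGACGTCA and the SOX core AACAAT, searched on both strands, where the SOX core reads ATTGTT on the reverse strand.
Sst: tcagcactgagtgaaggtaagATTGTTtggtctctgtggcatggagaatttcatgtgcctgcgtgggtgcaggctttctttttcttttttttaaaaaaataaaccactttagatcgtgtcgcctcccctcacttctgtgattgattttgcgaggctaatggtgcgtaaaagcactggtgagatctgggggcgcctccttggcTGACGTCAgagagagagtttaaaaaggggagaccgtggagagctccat
Pvalb: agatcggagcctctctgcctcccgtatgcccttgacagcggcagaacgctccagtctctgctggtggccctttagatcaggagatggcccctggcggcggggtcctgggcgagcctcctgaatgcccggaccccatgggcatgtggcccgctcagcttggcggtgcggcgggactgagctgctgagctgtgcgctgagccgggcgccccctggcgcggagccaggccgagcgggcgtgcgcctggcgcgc
Erbb4: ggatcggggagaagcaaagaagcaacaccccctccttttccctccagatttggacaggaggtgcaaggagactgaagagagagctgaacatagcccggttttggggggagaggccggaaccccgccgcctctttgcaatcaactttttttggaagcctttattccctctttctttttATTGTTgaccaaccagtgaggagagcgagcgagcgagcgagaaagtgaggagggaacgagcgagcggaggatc

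The *Sst* promoter held the cAMP response element with its first base at -48 from the start, and this element was found in 508 of 32851 promoters of this length (1.55%). The SOX core was in 9.42% of promoters, the *Sst* and *Erbb4* ones among them. The *Pvalb* promoter held neither. A match is a description of the letters and no evidence of binding. No library had an ATAC peak over the *Sst* window. Peaks of 4 libraries overlapped the *Pvalb* window and those of 4 libraries the *Erbb4* window.

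Libraries of the 2 genotypes stood apart before any interneuron was considered. Total RNA UMIs per library ran from 4326426 to 14624265 in WT and from 15505354 to 23582057 in V321L mice. In other nuclei, median UMIs per nucleus averaged 1609 ± 378 over WT mice and 3422 ± 735 over V321L mice (SD over 4 mice, two-sided p = 0.0286 by exact permutation, the smallest p that 4 against 4 mice allows). *Malat1*, a nuclear noncoding RNA, took 8280 to 10894 counts per 1000000 UMIs (CPM) in WT and 38769 to 46157 in V321L other nuclei. Of the genes tested by genotype in other nuclei, 68.5% passed an adjusted p of 0.05 in edgeR. Depth, these RNAs and genotype cannot be told apart in this design. The 8 libraries shared 1 to 13 nuclear barcodes per pair.

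Nuclei of the MGE-type carried the genes that chose them. These values are a description and no check of the label, since the same genes made the rule. *Gad1* and *Gad2*, which encode the GABA-synthesizing enzymes, were detected in 75.0% (exact 95% interval 61.6 to 85.6) and 82.1% (69.6 to 91.1) of the 56 nuclei, against 8.53% and 1.32% of other nuclei. *Dlx6os1*, a noncoding RNA of GABAergic neurons, was in 66.1%, against 0.563% of other nuclei. *Lhx6* was in 35.7%, *Sox6* in 51.8% and *Satb1*, a factor needed for SST cell maturation, in 60.7%. *Sst* was in 41.1% (28.1 to 55.0), and *Pvalb* in 12.5% (5.18 to 24.1). Genes of the opposing set were rare, with *Adarb2* in 5.36%, *Vip* in 1.79%, *Cnr1* in 12.5%, *Npas1* in 5.36% and *Nr2f2* in 3.57%. In CGE-type nuclei, *Adarb2* reached 97.7%, but *Adarb2* was also in 66.6% of other nuclei. Intervals cover counting error only.

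Membership was thin at the edges in WT mice. In 14 of 27 WT nuclei and 3 of 29 V321L nuclei the MGE genes exceeded the CGE genes by a single UMI. At least 1 UMI of *Lhx6*, *Sox6* or *Satb1* was present in 24 of 27 WT nuclei and in 28 of 29 from V321L mice. Neither *Sst* nor *Pvalb* was detected in 18 WT and 8 V321L nuclei. Such nuclei could enter only through *Lhx6*, *Sox6* or *Satb1*, so these counts are partly fixed by the rule and are no check of the label. Nuclei with exactly 3 GABA UMIs, just inside the minimum, numbered 1, 2, 1 and 6 in WT F1, F2, M1 and M2 and 1, 0, 3 and 0 in V321L F1, F2, M1 and M2. Nuclei with exactly 2 GABA UMIs that met the second condition numbered 1, 5, 2 and 2 in WT and 2, 3, 4 and 4 in V321L mice. MGE-type nuclei held 695 to 8851 UMIs with a median of 5546, and none passed the doublet limit.

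**Figure D1:**
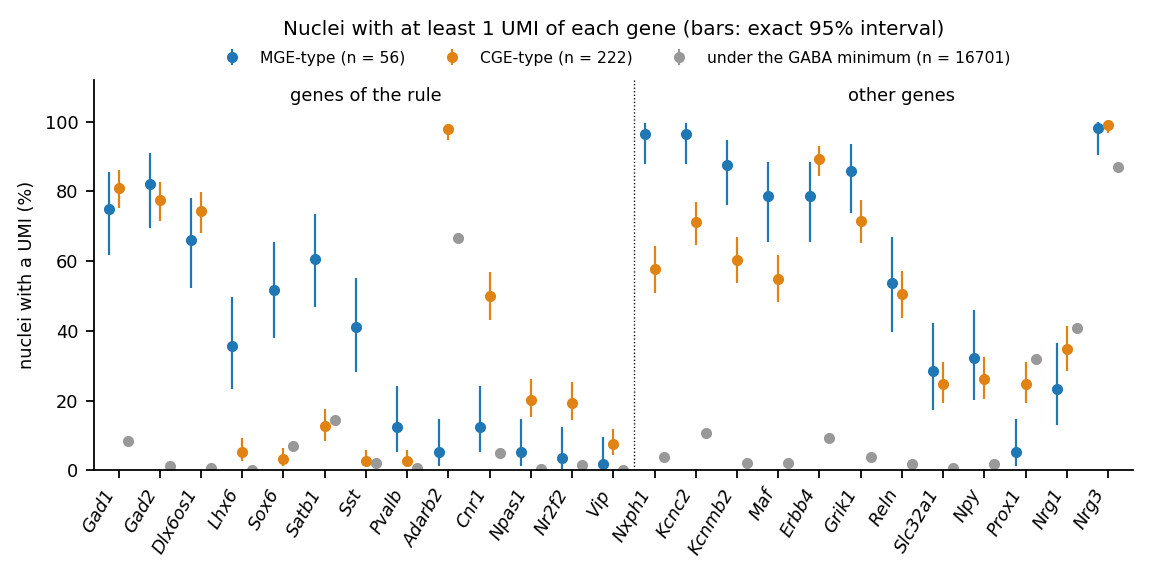
Percent of nuclei with at least 1 UMI for the 13 genes of the rule and 12 further genes, in 56 MGE-type, 222 CGE-type and 16701 other nuclei pooled over 8 mice; bars are exact 95% binomial intervals. *Nxph1* and *Kcnc2*, which the rule did not use, were each in 96.4% of MGE-type nuclei, and *Adarb2* was common in both other classes.

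Genes that the rule did not use set the MGE-type apart from other nuclei. The comparison paired both classes within each mouse and summed UMIs per mouse. Of 8918 genes tested in edgeR, 1724 passed an adjusted p of 0.05 (19.3%), with 573 higher (6.43%) and 1151 lower (12.9%). Because the rule chose the nuclei by RNA, a marked difference was built in, and the adjusted p describes how evenly it held over the 8 mice.

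Most tested MGE-associated genes and PV and fast-spiking genes rose. *Nxph1*, a secreted ligand of α-neurexins, was 5.41 ± 0.22 higher on the log2 scale (SE, edgeR adjusted p = 6.67e-124). *Kcnmb2*, an auxiliary subunit of BK potassium channels, was 5.95 ± 0.24 higher, *Kcns3*, a modifier of Kv2 channels, 5.57 ± 0.36 higher, and *Cntnap3*, a contactin-associated protein, 6.11 ± 0.36 higher. *Erbb4* rose by 4.98 ± 0.22 and *Maf*, a transcription factor of MGE interneurons, by 5.0 ± 0.26. A rise over other nuclei need not hold against the CGE-type, which is compared below. *Kcnc2*, the Kv3.2 channel of fast-spiking cells, rose by 3.94 ± 0.22. *Reln*, the extracellular glycoprotein reelin, rose by 3.35 and the neuropeptide gene *Npy* by 3.63. These differences covered 12 of 14 tested members of the MGE-associated list, with a median log2 difference of 3.97 against -0.23 over all genes tested. In the same list, *Sorcs1* was lower. Of the PV and fast-spiking genes, 11 of 16 were higher and *Cntnap5a* was lower.

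Other lists of interneuron and synaptic genes were divided. Of 8 tested interneuron transcription factors 3 were higher and 4 lower, with a median log2 difference of -1.35. Of 16 GABA receptor genes 3 were higher and 5 lower (median -0.33), of 22 glutamate receptor genes 9 and 7 (median 0.14), and of 24 potassium and sodium channel genes 9 and 8 (median -0.33). Of 10 SST-cell genes 3 were higher and 2 lower (median 0.17), and of 12 CGE-associated genes 5 and 4 (median 0.08).

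Genes of GCs fell. All 11 called members of the 12-gene GC list were lower and none was higher. *Slc17a7*, the vesicular glutamate transporter VGLUT1, differed by -6.02 on the log2 scale. *Prox1*, the homeodomain factor of GCs and of CGE interneurons, differed by -4.38, *C1ql2*, a synaptic organizer of mossy fibers, by -5.51, and *Calb1*, a calcium-binding protein of mature GCs, by -2.73. *Hs3st4*, a heparan sulfate sulfotransferase, had 0 UMIs in 297958 UMIs of all members, which was at least 44.2-fold lower than its 445.5 CPM in other nuclei, taking 3 counts over all members as the floor. Oligodendrocyte and astrocyte lists had 4 of 5 and 5 of 6 tested members lower and none higher. No microglial gene of 4 tested passed. Of 3 tested markers of oligodendrocyte precursors (OPCs), *Lhfpl3* was higher and *Tnr* lower. Both tested Cajal-Retzius markers were higher, *Reln* and *Cacna2d2*, a calcium channel subunit.

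Of 15 tested members of the neuregulin and ErbB list, 1 was higher and 2 lower, a share near the 19.3% over all genes. Beside the higher *Erbb4*, *Nrg1* differed by -1.95 ± 0.27 on the log2 scale (adjusted p = 1.41e-11 in edgeR) and *Nrg2* by -0.77 ± 0.28 (adjusted p = 0.0372). *Nrg2* lost its call on leaving out any of 7 mice, all but V321L M2. *Nrg3* differed by -0.04 ± 0.17 (adjusted p = 0.911) and was detected in 98.2% of MGE-type and 87.0% of other nuclei. *Nrg1* was in 23.2% of MGE-type and 40.9% of other nuclei.

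Against the CGE-type, 142 of 1059 genes tested within mice passed (13.4%), 58 higher (5.48%) and 84 lower (7.93%) in MGE-type nuclei. *Gria3* and *Kctd8* were among the higher genes and *Ntng1* and *Cadps2* among the lower. Of 16 channel genes 3 were higher and 4 lower, and of 9 GABA receptor genes 1 was lower. This contrast is again the rule's own, and its share of calls is given as background only.

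Glutamate receptor subunits were among the higher genes. *Gria3*, an AMPA receptor subunit, measured 831, 676, 1066 and 981 CPM in MGE-type nuclei of WT F1, F2, M1 and M2 and 1010, 959, 993 and 808 CPM in V321L F1, F2, M1 and M2. In CGE-type nuclei it measured 241, 197, 352 and 369 CPM in WT and 258, 383, 206 and 149 CPM in V321L mice. The classes did not overlap in any mouse, and the log2 difference was 1.79 ± 0.20 (adjusted p = 1.38e-05). *Gria1* (1.17 ± 0.23), *Gria4* (0.92) and *Grm5*, a group I metabotropic receptor, also rose. *Grid1* was lower (-0.76). In all, 6 of 17 tested glutamate receptor genes were higher and 1 lower, with a median log2 difference of 0.46 against -0.03 over all genes.

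Further genes higher in the MGE-type included *Sox5*, a partner of Sox6 (1.99 ± 0.28), *Kctd8*, an auxiliary subunit of GABA-B receptors (2.22 ± 0.32), *Utrn*, the dystrophin relative utrophin (2.08 ± 0.23), and *Il1rapl2* (2.04 ± 0.45). *Nxph1* (0.91 ± 0.20), *Kcnc2* (1.20 ± 0.28) and *Kcnmb2* (0.86, adjusted p = 0.0486) were the 3 higher of 10 tested MGE-associated genes. *Kcnmb2* lost its call on leaving out any of 5 mice, WT F1, F2 or M2 or V321L F1 or F2.

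Genes lower in the MGE-type were led by *Ntng1*, a netrin-family adhesion protein of axons, and *Cadps2*, a factor for dense-core vesicle release. *Ntng1* was 0, 81.1, 0 and 0 CPM in WT and 41.2, 0, 0 and 0 CPM in V321L MGE-type nuclei, against 554, 1058, 996 and 565 CPM in WT and 874, 383, 531 and 257 CPM in V321L CGE-type nuclei. Every CGE-type value exceeded every MGE-type value, with a log2 difference of -5.16 ± 0.44. *Cadps2* differed by -5.00 ± 0.45, *Kcnq5*, an M-current channel, by -2.72 ± 0.39, *Nfib*, a nuclear factor I gene, by -2.26 ± 0.36 and *Csmd3* by -2.34 ± 0.23. *Reln* was -1.16 ± 0.29 (adjusted p = 0.0125), and it was 1 of the 2 lower of 5 tested CGE-associated genes, with *Col25a1* (-0.88). *Erbb4* did not pass (-0.50 ± 0.32, adjusted p = 0.348), nor did *Nrg1* (-0.67), *Nrg2* (-0.57) and *Nrg3* (0.28).

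The CGE-type class held genes of GCs. *Slc17a7* was detected in 17.6% of CGE-type nuclei against 1.79% of MGE-type nuclei and 28.3% of other nuclei. The CGE-type level of *Slc17a7* was 18.4 ± 27.7 CPM in WT and 110 ± 59.2 CPM in V321L mice (SD, n = 4), and that of *C1ql2* was 0 in every WT mouse and 58.6 ± 42.1 CPM in V321L mice. *Ntng1*, also on the GC list, was in 32.4% of CGE-type and 46.8% of other nuclei. *Cadps2* is not on that list and was in 32.0% of CGE-type and 19.8% of other nuclei. With nuclei holding a *Slc17a7* or *C1ql2* UMI left out, 54 MGE-type and 177 CGE-type nuclei gave 124 called genes, 55 higher and 69 lower. The CGE-type nuclei kept were 93 of 96 in WT and 84 of 126 in V321L mice. The part of these GC genes in the lower genes was otherwise not tested. Depth also differed, with medians per mouse of 3284 to 7590 UMIs in MGE-type and 2055 to 5818 UMIs in CGE-type nuclei. When every nucleus was thinned to 1000 UMIs, *Nxph1* stayed in 25 of 25 WT and 24 of 29 V321L MGE-type nuclei, against 57 of 92 and 45 of 126 CGE-type nuclei. *Kcnc2* was in 21 of 25 and 24 of 29, against 51 of 92 and 50 of 126. *Erbb4* showed the other order, with 18 of 25 and 16 of 29 MGE-type nuclei against 87 of 92 and 102 of 126 CGE-type nuclei. *Maf* did not set the classes apart, with 6 of 25 and 8 of 29 against 25 of 92 and 30 of 126. *Kcns3* was rare in both, with 1 of 25 and 3 of 29 against 9 of 92 and 6 of 126.

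**Figure D2:**
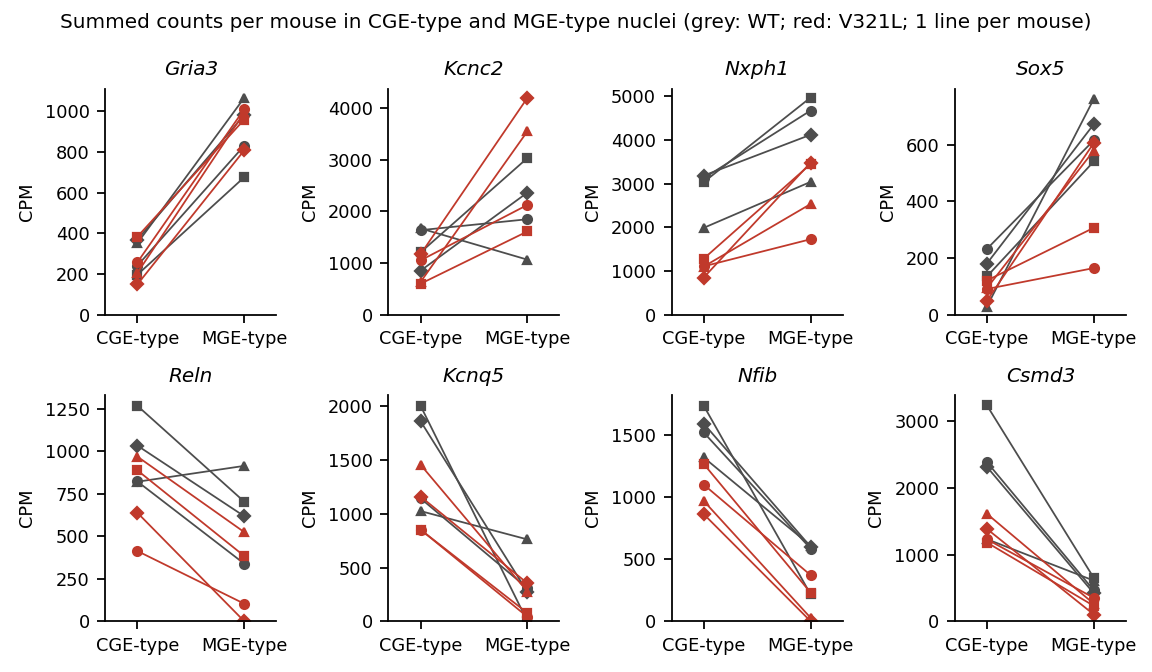
CPM of *Gria3*, *Kcnc2*, *Nxph1*, *Sox5*, *Reln*, *Kcnq5*, *Nfib* and *Csmd3* in CGE-type and MGE-type nuclei; each line is 1 mouse and joins its 2 classes, colored by genotype. *Gria3* rose in all 8 mice, and *Kcnq5* (0 to 761 CPM against 852 to 2006), *Nfib* (0 to 609 against 862 to 1735) and *Csmd3* (101 to 649 against 1180 to 3236) were lower in MGE-type nuclei with no overlap.

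Among themselves the 56 nuclei fell into 23 with an *Sst* UMI (Sst+), 7 with a *Pvalb* UMI (Pvalb+) and 26 with neither, and none held both. Sst+ nuclei held 1 to 49 *Sst* UMIs with a median of 5, and Pvalb+ nuclei 1 to 8 *Pvalb* UMIs with a median of 3. Median UMIs were 5536, 6195 and 5452 in the 3 subsets. Absence of an *Sst* UMI does not show that a cell lacked the RNA. The subsets were uneven by mouse. Each WT mouse gave 2 Sst+ nuclei, and V321L F1, F2, M1 and M2 gave 2, 2, 11 and 0. The highest *Sst* count in a nucleus was 1, 1, 4 and 7 UMIs in WT F1, F2, M1 and M2. It was 11, 26 and 49 UMIs in V321L F1, F2 and M1. In WT F1 and F2 every Sst+ nucleus thus rested on 1 *Sst* UMI, and the part of RNA from outside nuclei in these was not tested.

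*Erbb4* UMIs were fewer in most Sst+ nuclei than in most of the others. *Sst* belongs to the rule, and a nucleus without it entered only through *Lhx6*, *Sox6*, *Satb1* or *Pvalb*. The split is therefore not independent of how the nuclei were chosen. The median *Erbb4* UMI count per nucleus was 1 in Sst+ nuclei (range 0 to 104), 42 in Pvalb+ nuclei (0 to 120) and 58 in nuclei with neither (0 to 317). Only 6 of 23 Sst+ nuclei reached 10 *Erbb4* UMIs, against 6 of 7 Pvalb+ and 20 of 26 with neither. In the 6 mice with nuclei on both sides, *Erbb4* was lower in Sst+ nuclei of all 6. Sst+ against Sst- levels were 1436 against 20284 CPM in WT F1, 865 against 12349 in WT F2 and 739 against 15734 in WT M2. In V321L mice they were 0 against 8015 CPM in F1, 0 against 9842 in F2 and 4969 against 13148 in M1. The means were 1335 ± 1863 and 13229 ± 4370 CPM (SD, n = 6 mice). The exact sign-flip permutation test gave p = 0.03125, the smallest that 6 mice allow, and 0.109 after adjustment over the 7 genes tested this way, so this difference did not pass.

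No other gene tested this way passed after adjustment. *Elfn1*, a postsynaptic organizer of excitatory inputs onto SST cells, was 222 ± 125 CPM in Sst+ and 17.8 ± 20 CPM in Sst- nuclei, higher in 6 of 6 mice (exact p = 0.03125, adjusted 0.109). It was detected in 12 of 23 Sst+, 0 of 7 Pvalb+ and 4 of 26 other MGE-type nuclei. *Reln* was in 17 of 23, 1 of 7 and 12 of 26, and at 688 ± 477 against 297 ± 233 CPM was higher in 5 of 6 mice (exact p = 0.0625, adjusted 0.146). *Npy* was 156 against 73.9 CPM, higher in 4 and lower in 1 of 6 mice (exact p = 0.4375, adjusted 0.51). *Nxph1* was close across the subsets, with medians of 15, 14 and 16.5 UMIs per nucleus, and 3458 against 3423 CPM (exact p = 0.969).

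**Figure D3:**
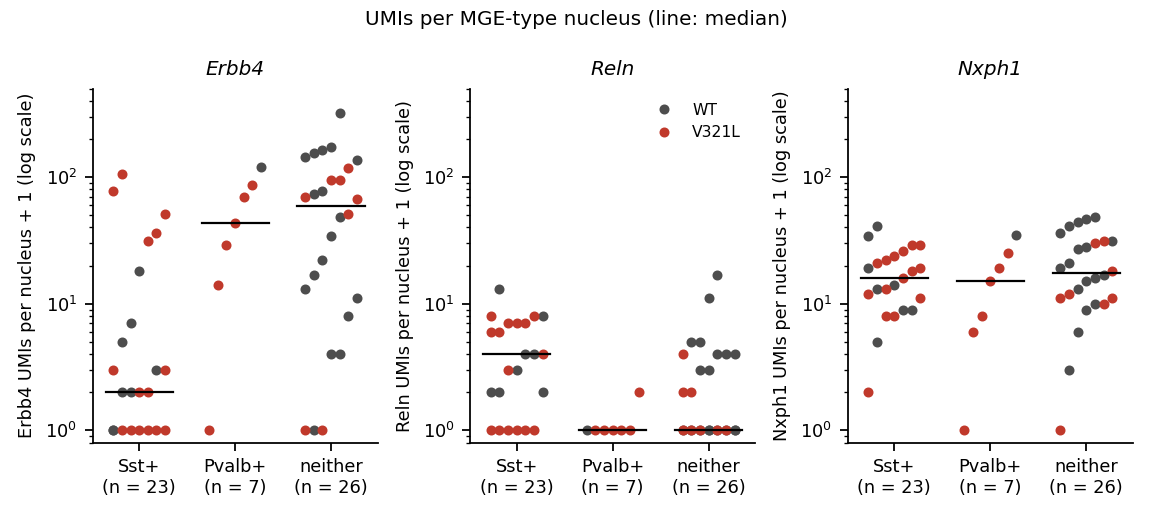
UMIs plus 1 of *Erbb4*, *Reln* and *Nxph1* in each MGE-type nucleus on a log axis, for 23 Sst+, 7 Pvalb+ and 26 nuclei with neither, colored by genotype; lines are medians. *Erbb4* medians were 1, 42 and 58 UMIs, whereas *Nxph1* medians were 15, 14 and 16.5 UMIs.

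Lifting both upper limits gave more nuclei, a choice made after seeing the data because no mouse within the limits had 5 nuclei of both kinds. There were then 114 MGE-type nuclei, of which 51 held *Sst*, 33 *Pvalb*, 6 of these both, and 36 neither. All 6 with both were from V321L mice. A UMI of the GC genes *Slc17a7* or *C1ql2* was in 12 of 82 V321L and 1 of 32 WT nuclei, against 2 of 29 and 0 of 27 within the limits. Nuclei over the limits had no doublet score, so doublets among them were not assessed. In 7 mice *Erbb4* was 2434 ± 1291 CPM in Sst+ and 11470 ± 3641 CPM in Sst- nuclei, and *Reln*, *Elfn1* and *Npy* were higher in Sst+ nuclei at 927 against 300, 149 against 37.3 and 642 against 270 CPM. Each gave an exact sign-flip p of 0.0156, the smallest for 7 mice, and 0.0273 after adjustment. Here too the split used *Sst*, a gene of the rule.

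Across all genes, the 4 V321L mice with at least 5 nuclei of both kinds were fitted in edgeR with mouse as a block. Of 1977 genes, 139 passed (7.03%), 79 higher (4.00%) and 60 lower (3.03%) in Sst+ nuclei. No WT mouse entered this comparison. *Sst* and *Pvalb* both belong to the rule, and a nucleus without *Sst* entered only through *Lhx6*, *Sox6*, *Satb1* or *Pvalb*. Of the 82 V321L nuclei, 31 held *Pvalb* and 6 of these also *Sst*, so some difference in SST and PV genes was built in. Leaving out V321L F2 reduced the calls to 53.

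Sst+ nuclei were higher in genes known from SST cells. *Reln* measured 522, 740, 587 and 1129 CPM in Sst+ nuclei of V321L F1, F2, M1 and M2, against 320, 114, 11.4 and 107 CPM in Sst- nuclei. The sides did not overlap, and the log2 difference was 2.62 ± 0.51 (edgeR adjusted p = 0.00611), a call lost without V321L F2. *Trhde*, the ectoenzyme that degrades thyrotropin-releasing hormone (3.27 ± 0.37), *Grin3a*, an NMDA receptor subunit (3.11), *Pcdh11x*, a protocadherin (2.76), and *Npy* (1.31 ± 0.35, adjusted p = 0.0425) also rose. All 6 tested members of the SST-cell list were higher, with a median of 2.69 against 0.01 over all genes. The *Npy* call was lost on leaving out any 1 of the 4 mice. *Dcc*, a netrin receptor (3.34 ± 0.31), and *Man1a*, a Golgi mannosidase (4.00 ± 0.59), were among the largest rises.

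Sst- nuclei were higher in genes of PV and fast-spiking cells. *Kcnc1*, the Kv3.1 channel of fast-spiking cells, measured 267, 296, 241 and 238 CPM in Sst+ against 897, 786, 632 and 826 CPM in Sst- nuclei, with no overlap (log2 difference -1.54 ± 0.23, adjusted p = 0.00172). *Il1rapl2* (-2.89 ± 0.46) and *Erbb4* (-1.96 ± 0.22, adjusted p = 0.000494) were also lower in Sst+ nuclei. In all, 5 of 16 tested PV and fast-spiking genes were lower and none was higher, with a median of -1.06. *Tll1*, a metalloprotease, measured 34.8, 25.7, 83.9 and 79.5 CPM in Sst+ against 670, 600, 564 and 480 CPM in Sst- nuclei (-3.45 ± 0.35). *Btbd11* (-2.12 ± 0.28) and *Cntnap4* (-2.03) fell as well. *Kcnc2* (0.16, adjusted p = 0.685), *Nxph1* (-0.02, adjusted p = 0.978) and *Nrg3* (-0.03, adjusted p = 0.965) did not pass.

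The share of MGE-type nuclei did not differ between genotypes beyond the spread of mice. It was 0.273, 0.239, 0.101 and 0.488% of nuclei in WT F1, F2, M1 and M2, from 5, 9, 2 and 11 nuclei. It was 0.388, 0.198, 0.858 and 0.252% in V321L F1, F2, M1 and M2, from 8, 4, 13 and 4 nuclei. The genotypes overlapped, with means of 0.275 ± 0.160 and 0.424 ± 0.300% (SD, n = 4, difference 0.149 percentage points, exact permutation p = 0.514). V321L M1 was the highest mouse, and without it the difference was 0.00401 (exact p = 0.943).

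The upper limits bore on this share. They removed 5 of 32 WT and 53 of 82 V321L nuclei that met the rule. Without these limits, the share was 0.320 ± 0.189% in WT (0.101 to 0.552) and 1.03 ± 0.464% in V321L mice (0.662 to 1.71), with no overlap (difference 0.712, exact p = 0.0286). Leaving out V321L M1 gave 0.486 (exact p = 0.0571). The exact p was 0.0286 without V321L F1, F2 or M2 and 0.0571 without any single WT mouse. With a mouse left out, these p rest on 35 assignments, and the genotypes did not overlap whichever single mouse was left out. The same upper limits removed 0.151 to 4.38% of all WT and 10.6 to 13.6% of all V321L nuclei. With every nucleus thinned to 1000 UMIs before the rule, only 5 MGE-type nuclei remained and the difference was -0.0134 (0.0452 against 0.0318%, exact p = 0.657). As a share of GABAergic nuclei, the MGE-type was 16.7% in WT mice against 18.3% in V321L mice within the limits (exact p = 0.857) and 17.7% against 29.9% without them (exact p = 0.0857). The GABAergic share of all nuclei was 1.56 against 2.30% within the limits (exact p = 0.0571) and 1.68 against 3.42% without them (exact p = 0.0286).

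**Figure D4:**
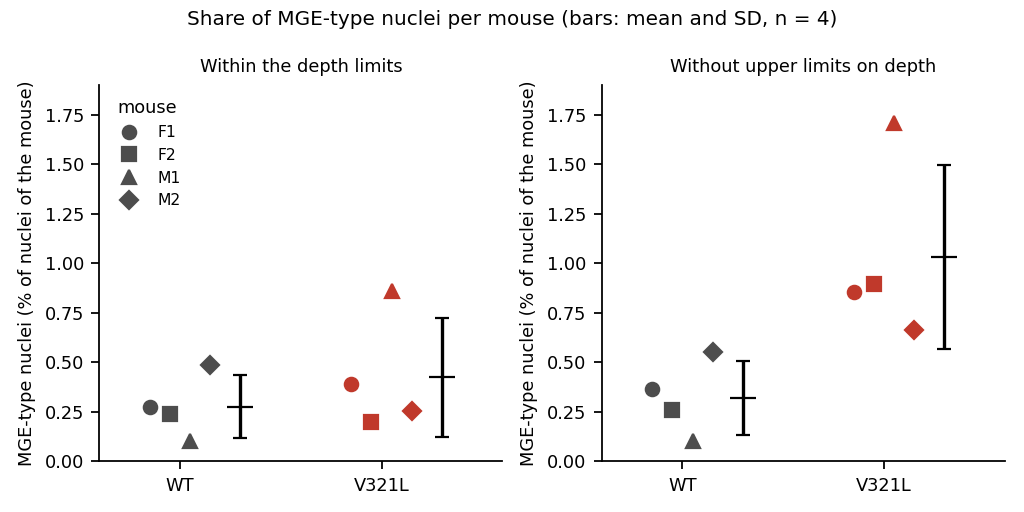
Percent of nuclei that were MGE-type in each WT and V321L mouse, within the quality limits and without the upper limits on UMIs and genes; points are mice and bars are mean ± SD (n = 4). The genotypes overlapped within the limits and did not overlap without them.

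*Sst* and *Pvalb* levels varied widely between mice of 1 genotype, and they are given without a test because the rule used them. *Sst* measured 61.6, 54.1, 761 and 145 CPM in MGE-type nuclei of WT F1, F2, M1 and M2 and 371, 1189, 2497 and 0 CPM in V321L F1, F2, M1 and M2. The genotypes overlapped, with the highest and the lowest value both in V321L mice. *Pvalb* measured 30.8, 0, 0 and 0 CPM in WT and 289, 0, 41.4 and 152 CPM in V321L mice. RNA outside nuclei, read from barcodes with at most 100 UMIs, also differed by genotype, with *Sst* at 10.4 to 67.2 CPM in WT and 278 to 558 CPM in V321L libraries and *Pvalb* at 3.46 to 5.93 and 78.1 to 87.7 CPM. The part of this free RNA in these levels and in the 1-UMI members was not tested.

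By genotype, the genes called in MGE-type nuclei included mitochondrial and noncoding RNAs that also differed in the other classes. Of 592 genes tested in edgeR, 51 passed (8.61%), 37 higher (6.25%) and 14 lower (2.36%) in V321L mice. Scaling by total UMIs instead of TMM also called 51 genes but as 20 higher and 31 lower, and it moved the median over all genes from -0.01 to -0.37. The count fell to 31, 24 and 24 on leaving out WT F1, F2 or M2, and to 32, 21 and 24 without V321L F2, M1 or M2.

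*mt-Co3*, a mitochondrially encoded subunit of cytochrome c oxidase, measured 123, 54.1, 152 and 109 CPM in WT and 2391, 1880, 1200 and 3989 CPM in V321L mice. Every V321L value exceeded every WT value (log2 difference 4.85 ± 0.52, adjusted p = 6.47e-05), and the differences in CGE-type and other nuclei were 3.02 and 2.82. All 13 mitochondrial genes together took 946 to 1877 CPM in WT and 6249 to 16513 CPM in V321L MGE-type nuclei. *Atp6v0b*, a vacuolar proton pump subunit, was 3.72 ± 0.58 higher, against 3.53 in CGE-type and 3.05 in other nuclei. *Gm42418*, a locus that collects ribosomal RNA reads, measured 6925, 3218, 5024 and 4251 CPM in WT and 412, 307, 331 and 404 CPM in V321L mice (-3.36 ± 0.34, adjusted p = 5.22e-05), against -4.43 and -4.93 in the other classes. *Malat1* took 12064 to 15073 CPM in WT and 39708 to 50052 CPM in V321L MGE-type nuclei. These RNAs moved with genotype in every class, and their part in the genes below was not tested.

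Markers of other cells were summed in the MGE-type nuclei of each genotype. The 12 GC markers summed to 462 to 2588 CPM in WT and 354 to 841 CPM in V321L mice, with 4 to 5 and 3 to 10 of them detected per mouse, and overlapped. *Slc17a7* and *C1ql2* had 0 UMIs in all WT and 1 UMI each in all V321L MGE-type nuclei. The 10 markers of other excitatory neurons summed to 0 to 36.3 CPM in WT and 124 to 537 CPM in V321L mice, with 0 to 2 and 2 to 3 detected. Most of the V321L sum was *Nrgn*, with 45 UMIs in V321L and 1 in WT nuclei. The 8 oligodendrocyte markers summed to 30.8 to 152 and 82.8 to 202 CPM, the 8 astrocyte markers to 145 to 1244 and 115 to 1010 CPM and the 8 microglial markers to 27.0 to 457 and 38.4 to 124 CPM, all overlapping. In other nuclei the microglial sums were 108 to 231 CPM in WT and 263 to 305 CPM in V321L mice. The 8 OPC markers summed to 305 to 1460 CPM in WT and 202 to 804 CPM in V321L mice, against 708 to 885 and 602 to 768 CPM in other nuclei. Nearly all of these UMIs were *Lhfpl3* (61 in WT and 40 in V321L) and *Tnr* (78 and 46). *Pdgfra*, *Cspg4*, *Olig1* and *Olig2* had 0 UMIs in both genotypes. The 7 Cajal-Retzius markers, which include *Reln*, summed to 431 to 1370 and 202 to 745 CPM, above the 44.4 to 55.0 and 55.6 to 66.7 CPM of other nuclei. This sum was *Reln* (77 UMIs in WT and 53 in V321L) and *Cacna2d2* (11 and 30) alone. *Trp73*, *Lhx1*, *Lhx5*, *Ndnf* and *Ebf3* had 0 UMIs in both genotypes. The part of these RNAs in the genotype differences was not tested.

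Few members of the synaptic and channel lists passed. In V321L mice, 1 of 13 potassium and sodium channel genes, 1 of 7 presynaptic release genes and 1 of 7 GABA receptor genes were higher, and 1 of 16 glutamate receptor genes was higher and 1 lower, against 8.61% called over all genes. These counts are near that background and show nothing about the lists. *Kcnc1* measured 185, 108, 152 and 164 CPM in WT and 454, 307, 317 and 1010 CPM in V321L mice, with no overlap (log2 difference 2.00 ± 0.47, adjusted p = 0.0219). *Cacna1a*, the P/Q-type calcium channel of PV terminals, measured 369, 433, 609 and 200 CPM in WT and 1051, 921, 841 and 757 CPM in V321L mice (1.67 ± 0.38, adjusted p = 0.0206), also without overlap. *Grin1*, the obligate NMDA receptor subunit (1.89 ± 0.50, adjusted p = 0.0392), was at 54.1 to 609 CPM in WT and 268 to 537 CPM in V321L mice, so the mice overlapped. *Gabbr2*, a GABA-B receptor subunit (2.09 ± 0.56, adjusted p = 0.0414), was the remaining higher receptor gene. In CGE-type and other nuclei *Kcnc1* was also higher (1.22 and 0.75), as were *Cacna1a* (1.42 and 0.82) and *Grin1* (1.92 and 0.95). The *Kcnc1* call was lost on leaving out WT F1, F2 or M2 or V321L M2, the *Cacna1a* call without WT F1, F2 or M2, and the *Grin1* and *Gabbr2* calls without most single mice.

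The 14 lower genes in V321L MGE-type nuclei included *Nlgn1*, *Dcc*, *Nrg3os* and *Grm8*. *Nlgn1*, the postsynaptic adhesion protein neuroligin 1, measured 3385, 5517, 3502 and 5377 CPM in WT and 2123, 1611, 621 and 960 CPM in V321L mice (-1.38 ± 0.39, adjusted p = 0.0421). *Dcc* measured 1169, 1623, 1370 and 1744 CPM in WT and 515, 192, 372 and 0 CPM in V321L mice (-1.93 ± 0.54, adjusted p = 0.0421). *Nrg3os*, a noncoding RNA transcribed opposite *Nrg3*, differed by -1.97 ± 0.50 (adjusted p = 0.0356). *Grm8*, a presynaptic metabotropic glutamate receptor, differed by -2.53 ± 0.69 (adjusted p = 0.0421). None of the *Nlgn1* or *Dcc* values overlapped between genotypes. Other nuclei showed -1.59 for *Nlgn1*, -1.55 for *Dcc* and -1.91 for *Nrg3os*. Each of these 4 calls was lost on leaving out at least 5 of the 8 mice in turn.

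The receptor *Erbb4* showed no difference between genotypes that passed the test. It measured 13418, 10195, 152 and 13152 CPM in WT F1, F2, M1 and M2 and 5587, 5486, 6290 and 7928 CPM in V321L F1, F2, M1 and M2. WT M1, with 2 MGE-type nuclei, both Sst+, lay below every V321L mouse and the other 3 WT mice above them (-0.23 ± 0.60, adjusted p = 0.883). In CGE-type nuclei *Erbb4* differed by -0.55 (adjusted p = 0.0174) and in other nuclei by -1.34. *Nrg3*, a ligand of ErbB4, measured 8463, 10357, 6242 and 9628 CPM in WT and 4947, 3837, 3931 and 4999 CPM in V321L mice without overlap (-0.62 ± 0.23, adjusted p = 0.140), and of the single mice left out in turn, only leaving out WT M1 let it pass. *Nxph1* (-0.26, adjusted p = 0.669), *Kcnc2* (0.77 ± 0.37, adjusted p = 0.253) and *Reln* (-0.72, adjusted p = 0.546) did not pass. *Nrg1* measured 215, 162, 0 and 618 CPM in WT and 144, 38.4, 193 and 0 CPM in V321L mice, too few UMIs to be tested, as were those of *Npy* and *Slc32a1*.

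**Figure D5:**
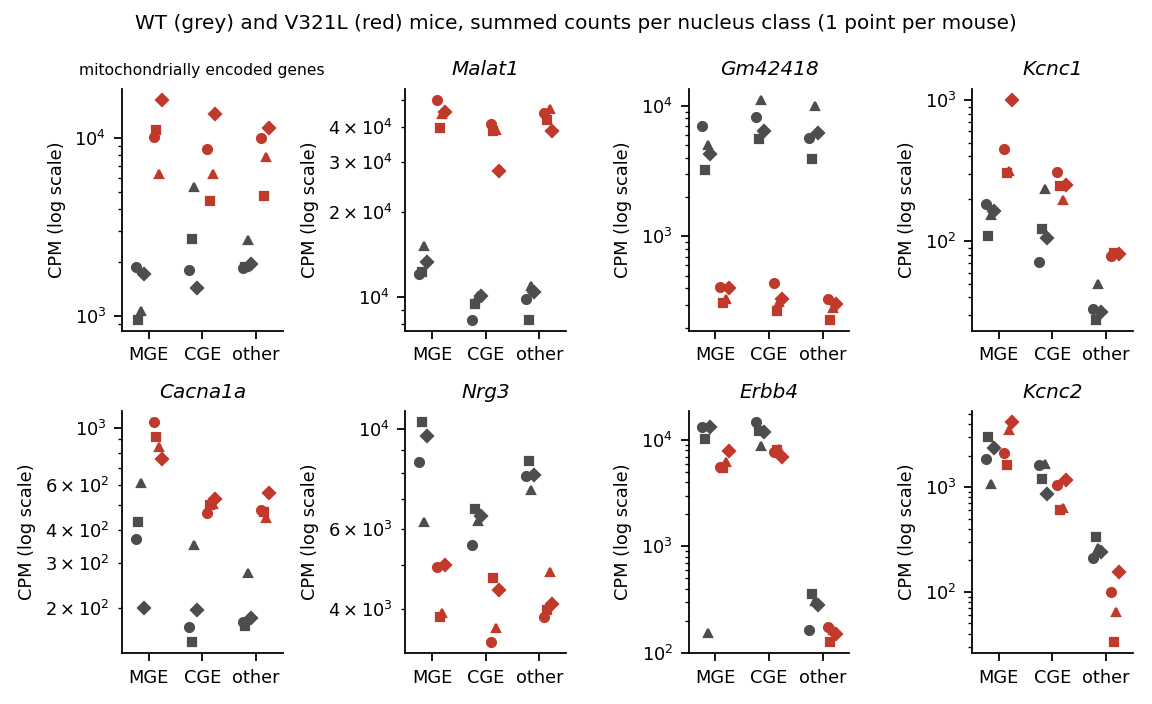
CPM on a log axis of the summed mitochondrial genes, *Malat1*, *Gm42418*, *Kcnc1*, *Cacna1a*, *Nrg3*, *Erbb4* and *Kcnc2* in MGE-type, CGE-type and other nuclei; each point is 1 mouse, colored by genotype. Mitochondrial genes, *Malat1* and *Gm42418* separated the genotypes in MGE-type and other nuclei, and *Erbb4* in MGE-type nuclei did not.

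The genotype difference itself was compared between classes by an interaction term in edgeR. Against the CGE-type, 0 of 1589 genes passed (0%), with 82 at an unadjusted p under 0.05 and 1 call by DESeq2. The terms were 0.45 for *Erbb4*, 0.84 for *Nxph1* and 1.06 for *Kcnc2*, with adjusted p of 0.973, 0.916 and 0.928. Within CGE-type nuclei alone, 22.9% of genes passed by genotype.

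Against other nuclei, 7 of 11224 genes passed (0.0624%), all more positive in the MGE-type. *Kcnc2* was 2076 ± 829 CPM in WT and 2868 ± 1203 CPM in V321L MGE-type nuclei, against 263 ± 53.8 and 88.3 ± 52.6 CPM in other nuclei (log2 interaction 2.39, adjusted p = 0.000465). *Slit2*, a secreted guidance ligand of Robo receptors, was 52.4 ± 42.5 and 316 ± 206 CPM in MGE-type nuclei against 214 ± 27.4 and 93.7 ± 20.3 CPM in other nuclei (3.63, adjusted p = 5.79e-05). *Trhde* (3.13), *Cdh13*, a cadherin anchored by a lipid (2.37), *Tm6sf1* (3.35), *Gm32647* (6.25) and *4930473D10Rik*, at 0 in all WT MGE-type nuclei, were the others. The median interaction over all genes was 0.33, against 0.09 with RLE scaling in place of TMM and -0.29 by DESeq2. With RLE 9 genes passed, 6 more positive and 3 less positive in the MGE-type. Leaving out V321L F1 gave 6 each way, so the single direction depended on the fit. None of the 7 passed without V321L M1, the mouse with 11 Sst+ nuclei, and DESeq2 called 0.

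Open chromatin was read in the same nuclei and did not enter the choice of MGE- against CGE-type. It was sparse, with 7384 to 89082 counts per mouse over 25588 regions that held a peak in every library. Start sites were therefore read as the percent of MGE-type nuclei with a count within 1 kb, in the libraries with a peak there.

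The *Pvalb* start, whose promoter is printed above, was open in more MGE-type than CGE-type nuclei. It had a count in 9 of 30 MGE-type nuclei (30.0%, exact interval 14.7 to 49.4), in 3 of 100 CGE-type nuclei (3.0%, 0.623 to 8.52) and in 1.70% of other nuclei, in 4 libraries. Of the MGE-type nuclei in these libraries, 0, 0, 0 and 1 held a *Pvalb* UMI in WT M1, WT M2, V321L F2 and V321L M1. Most nuclei with a count at this start therefore had no *Pvalb* RNA detected, and *Pvalb* RNA was part of the rule. V321L M1 gave 13 of the 30 nuclei. The *Maf* start was open in 11 of 35 (31.4%, 16.9 to 49.3), 10.4% and 2.63%. *Slc32a1*, the vesicular GABA transporter, was open in 8 of 17 (47.1%, 23.0 to 72.2), 16.1% and 1.33%, in V321L F2 and M1 only. These intervals treat nuclei as independent and are no test over mice. *Erbb4* was open in 8.11% of MGE-type, 7.96% of CGE-type and 1.22% of other nuclei, and *Gad1* in 8.51%, 13.2% and 5.91%. No library had a peak at the *Sst*, *Lhx6* or *Dlx6os1* start, so these were not read.

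Few regions passed a test over mice. Against the CGE-type, 0 of 49 regions passed (0%) in edgeR, with 1 at an unadjusted p under 0.05 and 0 by DESeq2. Against other nuclei, 4 of 24985 passed (0.0160%), with 6423 at an unadjusted p under 0.05 in edgeR and a median log2 difference of -0.64 over all regions. The 3 more open in MGE-type nuclei were chr15:77933465-77934499, which lay 4458 bases from the *Txn2* start (log2 difference 2.83 ± 0.57, adjusted p = 0.0194), chr11:56169226-56170249, nearest *Nmur2* (3.31, adjusted p = 0.0194), and chr2:19909251-19910256 at the *Etl4* start (3.14, adjusted p = 0.0375). Region chr2:98666230-98667441 at *Gm10800* was less open (-1.01 ± 0.21, adjusted p = 0.0194). Each of the first 3 rested on 0 to 10 counts per mouse in MGE-type nuclei, and leaving out single mice left 0 to 3 called. By genotype, 1 region was deep enough to test, the same one at *Gm10800*, and it did not pass (0%, with 0 at an unadjusted p under 0.05).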

How the data were processed

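RNA and ATAC were read from the same nuclei with the 10x Multiome kit in 8 libraries, 1 per mouse. Per the labels, the authors processed the reads on the mm10 build with Cell Ranger, in its ARC form per the study's methods, Seurat and Signac. The deposited files hold counts, whole UMIs per gene and whole counts per peak, for every barcode and without normalization (342506 to 501480 barcodes per library). Library totals were 4326426 to 23582057 RNA UMIs and 6580616 to 25552769 ATAC counts.

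Nuclei with over 500 UMIs, over 250 genes and at least 500 ATAC counts were kept, with upper limits on UMIs, genes and the mitochondrial share set as the study describes. Counts were summed per mouse and class, since nuclei are not replicates. The 13 genes of the rule stayed in library sizes and were not tested. Sums were tested with edgeR 4.0.16 (R 4.3.3, quasi-likelihood, TMM, filterByExpr, Benjamini-Hochberg, adjusted p at 0.05), with mouse as a block between classes and genotype alone within the MGE-type. In the comparison of MGE-type with other nuclei, scaling factors came from genes expected at 5 or more counts in every sum, because the MGE-type sums were shallow. This scaling was set after seeing the data, and regions in that comparison were scaled by library size. The other region comparisons and both interaction fits used TMM over all tested features. Single values were compared with exact permutation tests (scipy 1.17.1), where 4 against 4 mice give 70 assignments. Peaks were merged over libraries and regions with a peak in every library were tested. CPM are counts per 1000000 UMIs of the class and mouse. Scrublet in scanpy scored doublets, with a limit of 2 SD above the library mean.

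The rule, the gene lists and the genes named were chosen with earlier results of these data known. Named were the rule genes, list members that passed, a few genes always given (such as *Erbb4*, *Nxph1* and *Reln*), and up to 10 genes each way with the largest change among those that passed, averaged 50 CPM or more and showed either no overlap of genotypes or 1 sign in every mouse. *Elfn1*, *Tll1*, *Grin1* and *Gabbr2* fall under the lists or this rule. Alternatives were DESeq2 1.42.0, other scalings and filters, thinning, doublet removal, other rule settings and leaving out each mouse. Some named genes are not reported here.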

Additional observations from a re-analysis of the deposited data

Results flagged for a closer look

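In 56 groups of 4 mice tested for a lone value, 8 were flagged, and chance flags about 1 in 20 groups. *Sst* reached 761.3 CPM in WT M1, which had 2 MGE-type nuclei. The other flagged values were single mice above 3 mice at 0, a pattern that is always flagged, so the rate of 1 in 20 does not apply to them. They were *Pvalb* at 30.78 CPM in WT F1, *Cnr1* at 152.3 CPM in WT M1, *Nr2f2* at 36.33 CPM in WT M2, *Prox1* at 20.61 CPM in V321L F1, and *Adarb2*, *Vip* and *Penk* at 13.79 CPM each in V321L M1.

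The genotype difference in MGE-type nuclei minus that in other nuclei passed the interaction test in edgeR for 7 genes, and their log2 terms were 3.625 for *Slit2*, 3.347 for *Tm6sf1*, 6.248 for *Gm32647*, 2.373 for *Cdh13*, 2.387 for *Kcnc2*, 3.131 for *Trhde* and 12.1 for *4930473D10Rik*. The last had 0 UMIs in every WT MGE-type sum, so its size depends on the prior count.

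Nuclei that met the rule but lay over the upper limits on UMIs or genes numbered 5 in WT and 53 in V321L mice. They enter only the comparisons said to be without these limits.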

How the results depend on the processing

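Few nuclei limited these results: 56 in all and 2 to 13 per mouse, with 6568 to 72494 UMIs per MGE-type sum. Depth, mitochondrial RNA and free RNA moved with genotype and cannot be told apart from it. The cause of the shifts below was not tested, except that leaving out mice, thinning and stricter rules leave fewer nuclei, UMIs or genes by construction.

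The difference in the share of MGE-type nuclei between genotypes (0.149 percentage points) was -0.0134 after thinning every nucleus to 1000 UMIs and 0.712 without upper limits. Leaving out mice in turn gave 0.00401 to 0.224 within the limits and 0.486 to 0.836 without them, where the exact p passed 0.05 on leaving out V321L F1 (0.771), F2 (0.757) or M2 (0.836). A GABA minimum of 5 gave 0.132 against 0.284% (exact p = 0.0857).

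Genotype genes (51) numbered 141 with no filter, 2 on thinning to 500 UMIs per nucleus, 25 at a GABA minimum of 5, 7 at a margin of 2 UMIs, 235 without upper limits and 21 to 59 with single mice left out. DESeq2 called 44, and TMM over deep genes called 51 higher and 4 lower. Genes between MGE- and CGE-type (142) numbered 379 with no filter, 19 thinned, 60 in WT alone, 82 in V321L alone, 602 without upper limits and 98 to 158 with single mice left out. Against other nuclei (1724), DESeq2 called 1078, thinning left 249, WT alone 725, V321L alone 889, no upper limits 3042, and single mice left out 1398 to 1574. TMM over all tested genes called 420 higher and 1508 lower with a median of -0.43, RLE 614 and 1010, and library sizes 690 and 875. For Sst+ against Sst- (139), no filter gave 247, thinning 4, an *Sst* minimum of 2 UMIs 108, and single mice left out 53 to 141, the lowest without V321L F2.

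The interaction against the CGE-type (0) gave 1 with no filter, by DESeq2 and at a margin of 2, 2 without upper limits and 0 to 3 with single mice left out. Against other nuclei (7), DESeq2, thinning and a filter at the depth of the MGE-type sums gave 0, a margin of 2 gave 4, no upper limits 52, and single mice left out 0 to 12. Regions between MGE- and CGE-type (0) numbered 4 with no filter. Regions against other nuclei (4) numbered 190 by DESeq2, 3567 without upper limits, 12098 with TMM over all tested regions and 0 to 3 with single mice left out.

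Of the values of named genes under all alternatives, none reversed. By genotype, 435 kept their side of the threshold, 113 lost the call and 2 gained one. Between MGE- and CGE-type these numbers were 674, 91 and 6, and against other nuclei 1528, 136 and 0.

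No source used here says that replicate numbers mark shared days or batches, and the pairing check found correlations of 0.11, 0.0192, 0.152 and 0.0915 between same-numbered mice over 592 genes, not all over 0.1. WT F1, M1 and M2 correlated best with their own number and WT F2 with V321L M2. With the replicate number as a block, 38 genotype genes passed (30 higher, 8 lower), and the share difference of 0.149 had an exact p of 0.75, or 0.125 for the 0.712 without upper limits. Not run were Sst+ against Sst- within the limits, where no mouse had 5 nuclei of both kinds, and that comparison with doublets removed. RLE and DESeq2 could not be fitted to the 1 genotype region.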
